A study of Mus musculus with 8 samples.

Results

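Kelch-like and BTB-domain genes (Klhl, Kbtbd and Btbd) and the cullin genes (Cul) were followed in fasted and fed mouse muscle. Members were the transcript clusters, the gene-level probe groups of an exon array, whose single platform gene symbol belongs to 1 of these 4 numbered families. Where a gene had more than 1 cluster, the one of highest mean over the 8 arrays stood for it. The rule gave 45 clusters of 43 genes, among 14860 genes with a cluster of 1 symbol: 21 Klhl, 5 Kbtbd, 9 Btbd and 8 Cul genes. The tissue was the tibialis anterior, a lower leg muscle made largely of fast fibres, taken from male mice of 8 weeks that had food ad libitum or none for 24 h. Each of 4 experiments held a fed and a fasted pool, and every pool was RNA of 3 mice of a strain that the labels do not name. The fast for 24 h was thus the labelled difference between the groups, and spread between single mice was not measured.

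Many proteins with a BTB domain bind cullin 3. Those of them that also carry Kelch repeats use the repeats to hold a substrate. The cullin and its RING partner can then attach ubiquitin to that substrate. The other cullins work with different adaptors, such as the F-box proteins on cullin 1. In skeletal muscle, Kelch-like proteins are known for stabilising or turning over sarcomere proteins, and mutations in several of them cause human myopathy. Of 96 protein-coding genes of these families in RefSeq, 43 are analysed here, including all 8 cullins. The others analysed are 21 of 37 Klhl, 5 of 9 Kbtbd and 9 of 42 Btbd genes. Most of the Btbd genes without a cluster are numbered members of the Btbd35 group. Klhl40 and Klhl41, which are known for nemaline myopathy in humans, and Kbtbd13 were not analysed here.

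In the paired test, 1 of the 43 genes passed an adjusted p of 0.05, Klhl38, which rose, and none fell (limma with experiment as a block, Benjamini-Hochberg over all 16755 clusters). This is 2.33% of the members, and 0.818% of all clusters passed, 0.531% higher and 0.286% lower. With 1 member past the threshold, nothing is read from the 2 shares. At an unadjusted p under 0.05 there were 5 genes higher and 5 lower, or 23.3% of members beside 10.9% of all clusters. The median difference between fasted and fed over members was 0.01 on the log2 scale, beside -0.02 over all clusters, with 23 members above 0 and 20 below. The median size of the difference, with the sign left out, was 0.16 for members and 0.10 for all clusters. The plot of the 43 differences shows Klhl38 apart from the rest, and the other 42 lay between -0.61 and 0.53.

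**Figure D1:**
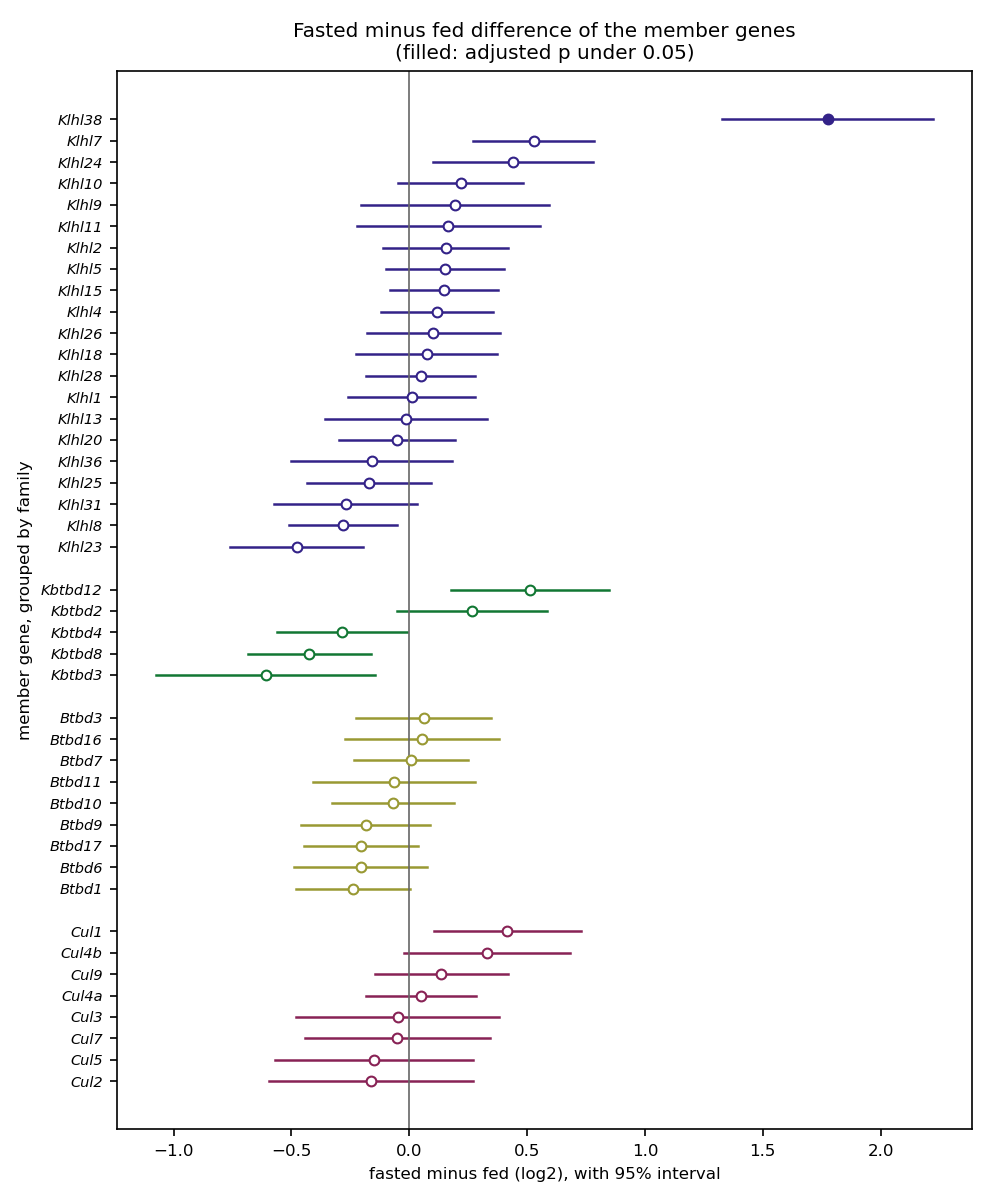
Difference between fasted and fed muscle (log2) of each member gene, by family, as points with 95% intervals from the moderated fit; filled points have an adjusted p under 0.05. Klhl38, at 1.78, is the only filled point, and the intervals of Klhl7, Klhl24, Kbtbd12 and Cul1 lie above 0 while those of Klhl23, Klhl8, Kbtbd4, Kbtbd8 and Kbtbd3 lie below it.

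Klhl38, a Kelch-like gene expressed in striated muscle (cluster 6835945), had log2 levels of 5.88, 6.19, 5.45 and 6.19 in the fed pools of experiments 1 to 4 and of 7.95, 7.43, 7.82 and 7.61 in the fasted pools. Every fasted pool lay above every fed pool, by more than 1 log2 unit between the closest values. Fed pools averaged 5.93 ± 0.35 and fasted pools 7.70 ± 0.23 (SD, n = 4). The rise was thus 1.78 ± 0.19 on the log2 scale (SE, 95% interval 1.33 to 2.22), or 3.42-fold, with an adjusted p of 0.0134 in limma. It was the fifth-largest rise among all clusters past the threshold. The rise was 2.07 in experiment 1, 1.24 in experiment 2, 2.38 in experiment 3 and 1.42 in experiment 4. Experiments 1 and 3 thus gave the larger rises, and the fed pool of experiment 3 was the lowest of the 4 fed pools. Without experiment 1 the difference was 1.68 and no longer passed (adjusted p = 0.0755), and no member passed then.

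The gene next to Klhl38 in the order of protein-coding genes on chromosome 15 of RefSeq (GRCm38.p6, used for gene order only) is Fbxo32. It encodes atrogin-1, an F-box protein that serves a cullin 1 ligase in muscle atrophy. Fbxo32 was looked at after its value was known. Its level was 7.97 ± 0.23 in fed and 10.10 ± 0.12 in fasted muscle (SD, n = 4), a log2 difference of 2.13 ± 0.13 (SE, adjusted p = 0.00084). Of the 6 protein-coding genes on either side of Klhl38, 11 of 12 had a cluster, and the other 10 did not pass. They lay between -0.23 (Zhx1) and 0.18 (Wdyhv1), and Anxa13, the neighbour on the far side of Klhl38 from Fbxo32, was at 0.04 ± 0.13 (adjusted p = 0.970). Among called genes with a measured neighbour, 4 of 110 were next to another called gene, which are the pair of Klhl38 and Fbxo32 and the pair of metallothionein genes Mt1 and Mt2. Of 39 members with a measured neighbour, 3 adjoined a called gene (7.69%, beside 1.39% of all genes). The other members of these 3 were Btbd16, beside Tacc2 (log2 1.19 ± 0.12, adjusted p = 0.00791), and Klhl25, beside Agbl1 (-1.08 ± 0.16, adjusted p = 0.0356). Btbd16 itself was at 0.05 ± 0.14 and Klhl25 at -0.17 ± 0.11, and neither passed. With so few genes, Klhl38 among them, nothing is read from the share of members beside a called gene.

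**Figure D2:**
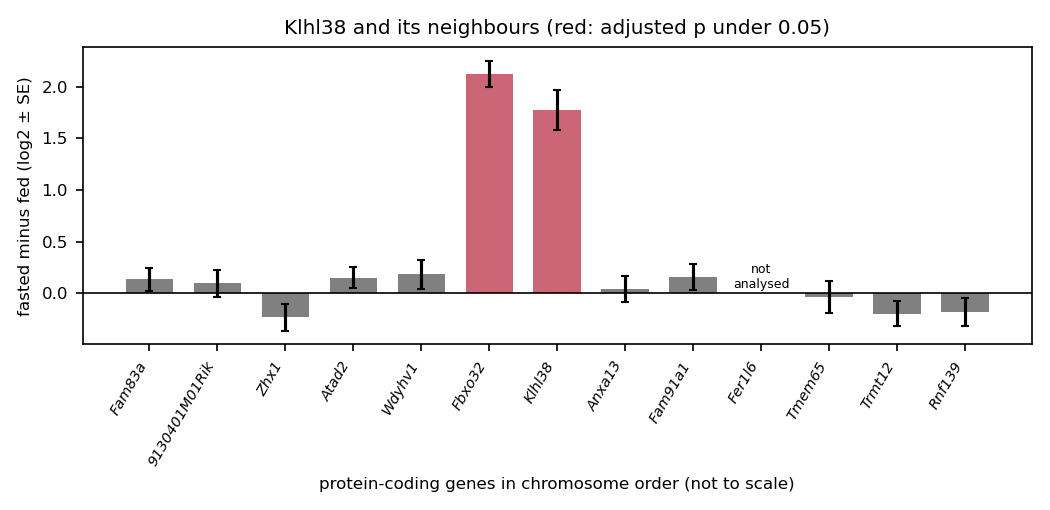
Difference between fasted and fed muscle (log2, bars from 0, whiskers 1 SE) of Klhl38 and the 6 protein-coding genes on either side of it, in chromosome order and not to scale. Fbxo32 at 2.13 and Klhl38 at 1.78 stand side by side, and the other measured neighbours lie between -0.23 and 0.18.

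Besides Klhl38, the groups did not overlap for 5 members: Klhl7, Kbtbd12 and Klhl5 were higher in every fasted pool than in any fed pool, and Klhl23 and Kbtbd8 were lower. With Klhl38 these are 14.0% of members, beside 6.77% of all clusters (3.55% higher, 3.22% lower). None of these 5 passed over all clusters. Klhl7 and Kbtbd12 came next to Klhl38 by the size of the difference above 0.

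Klhl7, a cullin 3 adaptor whose human mutations cause retinal degeneration (cluster 6929260), was at 6.77, 6.87, 7.02 and 7.07 in the fed pools and at 7.51, 7.46, 7.39 and 7.48 in the fasted pools. The fasted pools lay close together, with an SD of 0.05 beside 0.14 in fed muscle. The difference was 0.53 ± 0.11 (95% interval 0.27 to 0.78), or 1.44-fold, with an adjusted p of 0.100. Without the experiment block its adjusted p was 0.0374, and with experiment as a random block 0.0287. It passed in 4 of 12 alternative settings, with adjusted p from 0.0287 to 0.361.

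Kbtbd12 (cluster 6955350) was at 5.10, 5.59, 5.21 and 5.38 in fed and at 6.05, 5.71, 5.77 and 5.81 in fasted muscle. The lowest fasted pool and the highest fed pool, both of experiment 2, were 0.12 apart. The difference of 0.51 ± 0.14 did not pass (adjusted p = 0.211), in any of 12 alternatives either. Klhl5 differed by 0.15 ± 0.11 (adjusted p = 0.739), and its highest fed pool (5.19) and lowest fasted pool (5.20) nearly touched.

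The promoters of Klhl7 and Kbtbd12, the members with the largest differences above 0 after Klhl38, are shown for their sequence. Each run is the 250 bases before the annotated start from RefSeq (GRCm38.p6), 5′ to 3′ on the gene's strand. Klhl7 lies at chr5:24100340-24100589 on the plus strand and Kbtbd12 at chr6:88627430-88627679 on the minus strand. Capitals mark a match to 1 of 4 motifs searched on both strands, with N for any base: GTAAACA (FoxO), ACANNNTGT (core of the glucocorticoid response element), TATTTATAG (MEF2) and TGACNNNGC (antioxidant response element).
Klhl7: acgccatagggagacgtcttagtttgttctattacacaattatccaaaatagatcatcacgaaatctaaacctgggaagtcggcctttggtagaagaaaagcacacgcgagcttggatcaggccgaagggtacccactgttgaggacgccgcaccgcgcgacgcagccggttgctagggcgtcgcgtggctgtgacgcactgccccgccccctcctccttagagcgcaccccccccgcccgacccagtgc
Kbtbd12: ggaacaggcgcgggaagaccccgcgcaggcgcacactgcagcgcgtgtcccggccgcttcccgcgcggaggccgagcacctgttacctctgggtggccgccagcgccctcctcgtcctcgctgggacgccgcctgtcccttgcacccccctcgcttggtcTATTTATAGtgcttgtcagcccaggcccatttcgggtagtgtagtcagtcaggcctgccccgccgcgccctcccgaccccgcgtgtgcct

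Of the 37 members with a promoter in this table, Kbtbd12 was the 1 that held the MEF2 letters, which 0.485% of all 27025 genes hold; MEF2 is a family of muscle transcription factors. The FoxO letters were found in Cul7 alone (2.70% of members, 3.54% of all genes) and the glucocorticoid core in Btbd16 and Klhl13 (5.41%, beside 6.76%). The antioxidant response letters were found in 6 members, Btbd6, Btbd16, Cul5, Kbtbd3, Klhl13 and Klhl28 (16.2%, beside 11.5%). None of the 4 motifs was in the Klhl7 window, which says only that these letters are not there. A match of letters is not a bound site. Klhl38, the only member that passed the test, had no promoter in this table and was not searched. The search thus says nothing about the motifs of Klhl38.

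**Figure D3:**
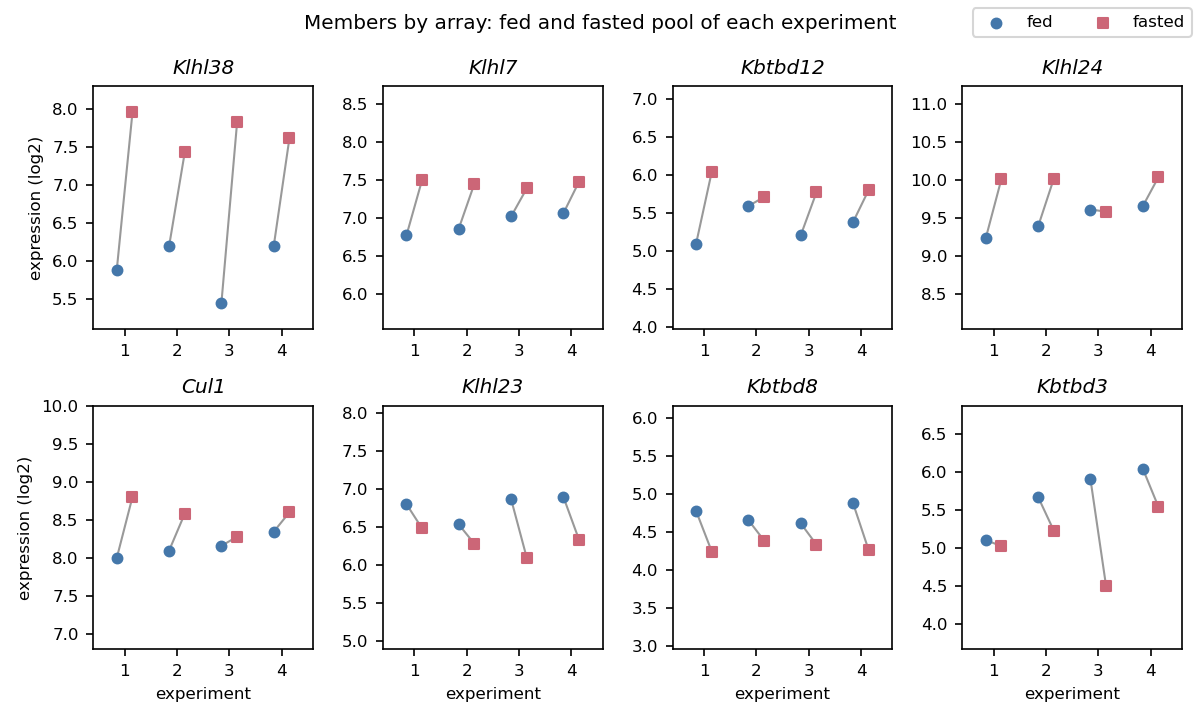
Expression (log2) of 8 members in the fed pool (circle) and the fasted pool (square) of experiments 1 to 4, joined within an experiment; each panel spans 3.2 log2 units. The fasted square is above the fed circle in each experiment for Klhl38, Klhl7, Kbtbd12 and Cul1, in 3 of 4 for Klhl24, and below it in each for Klhl23, Kbtbd8 and Kbtbd3.

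Among the other substrate adaptors that lay higher in fasted muscle, Klhl24, whose human mutations cause skin fragility through loss of keratin 14 (cluster 6839919), was at 9.23, 9.39, 9.61 and 9.65 in fed and at 10.01, 10.02, 9.58 and 10.04 in fasted muscle. Of the fasted pools, 3 were near 10 and that of experiment 3 lay among the fed values. The difference was 0.44 ± 0.15 with all experiments (adjusted p = 0.298) and 0.60 without experiment 3 (adjusted p = 0.108). Kbtbd2, the cullin 3 adaptor for the regulatory subunit of PI 3-kinase in insulin signalling, was at 0.27 ± 0.14 (adjusted p = 0.563), with 3 of 4 experiments above 0, and at 0.13 without experiment 1.

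Lower in fasted muscle, though not past the threshold, were Klhl23 and 3 of the 5 Kbtbd genes. Klhl23 (cluster 6877932) was at 6.80, 6.53, 6.86 and 6.89 in fed and at 6.48, 6.27, 6.09 and 6.33 in fasted muscle. The highest fasted and the lowest fed pool were close, and the difference was -0.48 ± 0.12 (adjusted p = 0.176). Kbtbd8, an adaptor that in human and frog cells directs neural crest formation (cluster 6948274), was at 4.77, 4.65, 4.61 and 4.87 in fed and at 4.24, 4.38, 4.33 and 4.25 in fasted muscle. Its pools did not overlap and its difference was -0.43 ± 0.11 (adjusted p = 0.185), at a level that may be background, since no detection calls were used here. Kbtbd3 was at 5.11, 5.67, 5.91 and 6.05 in fed and at 5.03, 5.23, 4.50 and 5.54 in fasted muscle. Its groups overlapped, and the difference of -0.61 ± 0.20 (adjusted p = 0.292) was -0.34 without experiment 3, whose own difference was -1.41. Kbtbd4, which acts on the CoREST corepressor in human cells, was at -0.28 ± 0.12 (adjusted p = 0.433) and at -0.18 without experiment 2.

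Klhl8, whose Caenorhabditis elegans counterpart promotes the breakdown of the synaptic protein rapsyn, showed a small difference of nearly the same size in each experiment. It was -0.25, -0.27, -0.30 and -0.31 in experiments 1 to 4. The mean difference of -0.28 ± 0.10 had an adjusted p of 0.327, and the fed pools spanned 6.17 to 6.51 while the fasted pools spanned 5.91 to 6.20. The groups thus overlapped although all 4 pairs ran the same way.

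Klhl31, a muscle Kelch protein needed for normal muscle in mice, had 2 clusters. The one that represents it (6990663) was at 11.20, 11.32, 11.63 and 11.54 in fed and at 11.19, 11.20, 10.97 and 11.23 in fasted muscle. The difference was -0.27 ± 0.13 (adjusted p = 0.530), near 0 in experiment 1 and -0.65 in experiment 3, and it was -0.14 without experiment 3. The other cluster (6990662) was lower in all 4 experiments, by 0.21 to 0.55, with a difference of -0.36 ± 0.11 (adjusted p = 0.239). Both clusters lay below 0 and neither passed. Klhl25, the other gene with a pair of clusters, directs breakdown of the translation repressor 4E-BP1 and of ATP-citrate lyase in human cells; its clusters were at -0.17 ± 0.11 and -0.10 ± 0.14.

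The remaining Klhl genes lay between -0.16 (Klhl36) and 0.22 (Klhl10). Klhl10, a gene of the male germ line, is one whose low level, from 4.31 to 4.78 over the 8 arrays, may be background. Klhl9 and Klhl13, which act together on Aurora B kinase in dividing human cells, were at 0.19 ± 0.17 and -0.01 ± 0.15. In both genes experiment 1 was below 0, by 0.25 and 0.40, and experiment 3 above it, by 0.83 and 0.47. Klhl20, an adaptor for the autophagy kinase ULK1, was at -0.05 ± 0.11 (95% interval -0.30 to 0.20), and Klhl2, a binder of actin and of WNK kinases, at 0.15 ± 0.11. Klhl15, an adaptor for a regulatory subunit of the phosphatase PP2A, was higher in 4 of 4 experiments, at 0.15 ± 0.10 (adjusted p = 0.711), and Klhl4 was at 0.12 ± 0.10 (adjusted p = 0.813). Klhl11 was at 0.17 ± 0.17, and Klhl1, Klhl18, Klhl26 and Klhl28 lay between 0.01 and 0.10. Some of these small differences came closer to 0 when 1 experiment was left out. Klhl2 was at 0.09 without experiment 1, Klhl5 at 0.08 without experiment 2 and Klhl25 at -0.08 without experiment 4. Klhl36 was at -0.0059 without experiment 1. Klhl11 ran from 0.017 without experiment 2 to 0.30 without experiment 4. Klhl26 ran from 0.0030 without experiment 3 to 0.18 without experiment 1. A further pair of clusters carried a Klhl symbol beside another gene's and were left out of the members. These were Klhl30 with Espnl, at 0.15 ± 0.12 (adjusted p = 0.791), and Klhl22 with Bod1, at 0.22 ± 0.11 (adjusted p = 0.529). The cluster of Klhl22 and Bod1 was higher in 4 of 4 experiments. Its groups did not overlap, though its highest fed pool (6.94) and lowest fasted pool (6.95) nearly touched.

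No Btbd gene passed, and none of the 9 had an unadjusted p under 0.05 (limma). Their differences lay between -0.24 and 0.06, with 6 of 9 below 0. Btbd1, which binds topoisomerase I (cluster 6968857), was at 7.73, 7.47, 7.67 and 7.94 in fed and at 7.43, 7.40, 7.33 and 7.68 in fasted muscle. Each pair ran lower after the fast and the groups overlapped, with a difference of -0.24 ± 0.10 (adjusted p = 0.465). Btbd17 was also lower in 4 of 4 experiments, at -0.20 ± 0.10. Btbd6, which is known from neuron formation in zebrafish, was at -0.21 ± 0.12, and Btbd9, tied to restless legs syndrome in humans, at -0.18 ± 0.12. Without experiment 2 they were at -0.11 and -0.10. Btbd3, Btbd7, Btbd10, Btbd11 and Btbd16 lay between -0.07 and 0.06.

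None of the 8 cullins passed, and 1 of 8 had an unadjusted p under 0.05 (limma). Cul1, the scaffold of the ligases that carry F-box proteins (cluster 6945935), was at 8.00, 8.10, 8.16 and 8.35 in fed and at 8.81, 8.59, 8.28 and 8.60 in fasted muscle. It was higher in 4 of 4 experiments with groups that overlapped, and the difference was 0.42 ± 0.13 (95% interval 0.10 to 0.73, adjusted p = 0.280). Cul3, the partner of many BTB proteins (cluster 6760051), was at 9.08, 9.34, 9.47 and 9.39 in fed and at 9.55, 9.56, 8.78 and 9.18 in fasted muscle. Its experiments ran in opposite directions, 0.47 and 0.22 in experiments 1 and 2 and -0.69 and -0.21 in experiments 3 and 4. The mean of -0.05 ± 0.19 had a 95% interval from -0.48 to 0.38, so that a change of either sign within it remains possible.

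Cul2, which carries the VHL tumour suppressor, and Cul5, which carries SOCS-box proteins, showed the same order of experiments as Cul3. Cul2 differed by 0.36 in experiment 1 and by -0.87 in experiment 3, with a mean of -0.16 ± 0.19, and Cul5 by 0.37 and -0.70, with a mean of -0.15 ± 0.18. Cul4b was at 0.33 ± 0.15 (adjusted p = 0.496), with experiment 3 at -0.23 and the others from 0.47 to 0.58. Its paralog Cul4a, which like Cul4b binds DDB1, was at 0.05 ± 0.10. Cul7, a partner of the F-box protein FBXW8, ran the other way from Cul3, with -0.51 in experiment 2 and 0.53 in experiment 3, and a mean of -0.05 ± 0.17. Cul9, which binds p53 in the cytoplasm, was at 0.14 ± 0.12.

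The fasted pool of experiment 3 was the lowest fasted pool for 5 of 8 cullins, Cul1, Cul2, Cul3, Cul4b and Cul5, while over all 43 members it was the lowest for 14 and the highest for 15. The fasted array of experiment 3 also had the lowest mean correlation with the other arrays across clusters, 0.962, beside 0.968 to 0.973 for the rest. The fed pool of experiment 1 was the lowest fed pool for 4 of 8 cullins, Cul1, Cul2, Cul3 and Cul5. Without experiment 3, Cul3 was at 0.16, Cul2 at 0.07, Cul5 at 0.04 and Cul4b at 0.52, and none of them passed. The part of the quality of the fasted array of experiment 3 in these values was not tested.

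**Figure D4:**
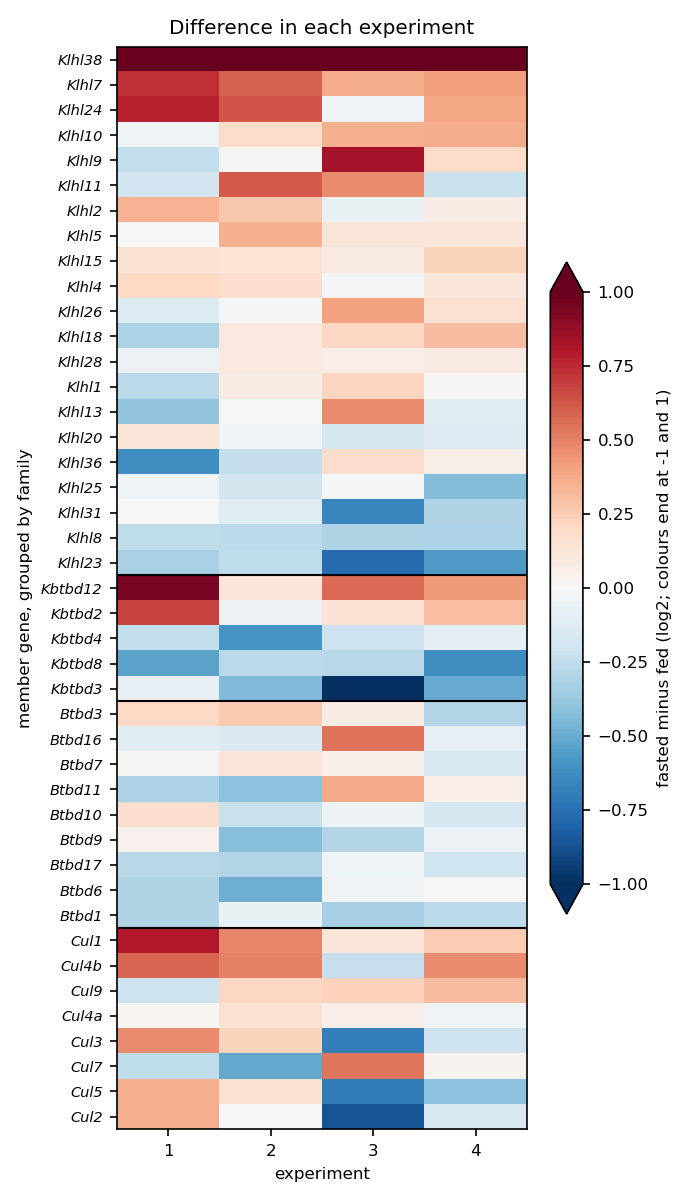
Difference between the fasted and the fed pool (log2, colour, ending at -1 and 1) of each member in experiments 1 to 4, by family. Klhl38 is above 1 in every column, Klhl8 is evenly pale blue, and Cul2, Cul3 and Cul5 are red in experiment 1 and blue in experiment 3.

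Across experiments, 6 members were higher in 4 of 4 and 9 were lower in 4 of 4, or 15 of 43. Of all clusters, 3131 of 16755 (18.7%) had 4 of 4 in 1 direction. Across the 42 members other than Klhl38, which are not independent replicates, differences of experiments 1 and 2 correlated with a Pearson r of 0.59 and those of experiments 3 and 4 with 0.588. Experiments 1 and 4 had 0.449, 2 and 4 had 0.472, 2 and 3 had 0.227 and 1 and 3 had -0.0642. Over all 16755 clusters the same correlations were, in this order, 0.352, 0.306, 0.193, 0.229, 0.0715 and -0.0852. The members share the arrays, so these values describe the arrays as much as the genes.

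The rest of the cullin machinery and the known partners were read through 7 gene lists. None of their 93 measured genes passed (limma). Of the 93, 12 were higher and 9 lower at an unadjusted p under 0.05, beside 10.9% of all clusters in either direction. The median difference over the 93 was -0.07. In the list of the cullin RING core and the enzymes that attach the activator NEDD8, 12 of 13 genes lay below 0, beside 54.4% of all clusters. The median was -0.19, and at that unadjusted p 5 genes of this list were lower and 0 higher. In experiments 1 to 4, 7, 8, 10 and 11 of the 13 were below 0, with medians of -0.05, -0.12, -0.45 and -0.28. Without experiment 3, 10 of 13 lay below 0 and the median was -0.20. In that experiment Uba3, a subunit of the enzyme that activates NEDD8, was at -1.56, while it was at 0.66 in experiment 1. Dcun1d1, a ligase that helps to attach NEDD8 to cullins, was at -0.67 ± 0.17 (adjusted p = 0.177), with groups that did not overlap. Senp8, which processes NEDD8, was at -0.56 ± 0.19 (adjusted p = 0.302), Dcun1d2 at -0.37 ± 0.14 and Cand2, an exchange factor of cullin ligases in muscle, at -0.26 ± 0.11.

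The COP9 signalosome, which removes NEDD8 from cullins, had 9 of 9 genes between -0.14 and 0.07. Among adaptors of other cullins, Elob, the elongin B of cullin 2 and 5 ligases, was at -0.68 ± 0.18 (adjusted p = 0.187), and Ddb1, the adaptor of the Cul4 proteins, at 0.34 ± 0.12 (adjusted p = 0.325). The median of these 10 genes was -0.12.

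Among 14 BTB-domain genes with other names, Bach1, a repressor that competes with NRF2, was at 0.53 ± 0.14 (adjusted p = 0.191), and Ivns1abp, a Kelch protein that binds actin, at 0.53 ± 0.16 (adjusted p = 0.253). Bach2, its relative in lymphocytes, was at 0.45 ± 0.16 and Rhobtb3 at -0.29 ± 0.10. Of 18 measured KCTD genes, whose proteins share the BTB fold, Kctd20 was at 0.61 ± 0.13 (adjusted p = 0.113), with groups that did not overlap, and the list median was -0.04.

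Reported substrates and partners had 22 measured genes with a median of -0.03. Ulk1, the autophagy kinase that KLHL20 marks for breakdown, came nearest to the threshold at 0.64 ± 0.11 (adjusted p = 0.0568). Nrap, a sarcomere assembly protein and partner of KLHL41, was at 0.48 ± 0.11 (adjusted p = 0.121). Nfe2l2, which encodes the KEAP1 substrate NRF2, was at 0.38 ± 0.12 (adjusted p = 0.267), and Irs1, the insulin receptor substrate, at -0.44 ± 0.14 (adjusted p = 0.277). Of 7 NRF2 target genes, Gsr, glutathione reductase, was at 0.41 ± 0.11 (adjusted p = 0.177), and the median was 0.17.

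Markers of fast muscle were at log2 levels of 10.8 to 12.4 for the 9 of 12 that were measured, and their differences lay between -0.14 and 0.01. The 4 measured markers of slow muscle lay between 0.06 and 0.16. In experiment 3, Tnnc1 was at 1.25, Tnni1 at 0.81, Myl2 at 0.55 and Atp2a2 at 0.06. In experiments 1, 2 and 4, Tnnc1 was at -0.22, -0.37 and -0.21 and Tnni1 at -0.37, -0.12 and 0.14. Myl2 was at 0.69, 0.20 and -0.82 in these experiments, and Atp2a2 at 0.02, 0.10 and 0.05. The summed unlogged slow level was 674 to 2007 in fed and 691 to 1909 in fasted pools. The part of slow fibres in the members' values was not tested. None of the 46 measured markers of 10 tissue or cell types passed (limma). Of these, 5 were higher and 4 lower at an unadjusted p under 0.05, beside 10.9% of all clusters in either direction. The lowest marker was the fibroblast gene Lum, at -0.95 ± 0.19 (adjusted p = 0.0899). The 6 fibroblast markers had a median difference of -0.35: Col1a2 (-0.45 ± 0.11), Col1a1 (-0.39 ± 0.13) and Col3a1 (-0.30 ± 0.13) were also lower in 4 of 4 experiments, Pdgfra was at 0.29 ± 0.11 and Dcn at 0.14 ± 0.14. Their summed unlogged level, in which Dcn has the most weight, was 1940 to 2706 in fed and 1922 to 2707 in fasted pools. The part of these cells in the members' values was not tested. In such bulk samples, fewer cells of a type and less RNA per cell cannot be told apart.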

How the data were processed

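RNA of tibialis anterior muscle, pooled from 3 mice for each array, was amplified with NuGEN SPIA chemistry and hybridised to exon arrays, per the labels' protocols. The authors deposited log2 expression values, 1 per transcript cluster, made with RMA, per the submitters' processing notes, which name no version. That the base is 2 was inferred from their range of 1.08 to 13.3. RMA compresses small signals, which lowers folds of dim clusters, and levels of different clusters were not compared or ranked.

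The table held 16755 clusters, of which 14996 had 1 symbol, 1019 several and 740 none in the platform annotation. All 43 members matched a RefSeq gene by Entrez number with the same symbol. Groups and experiment numbers came from the sample titles. The experiment pairs a fed with a fasted pool, since the series description scales fasting to nonfasting levels. Paired arrays' deviations correlated at -0.18, 0.05, -0.14 and 0.44. The paired model, with experiment as a block, used lmFit and eBayes without trend over all clusters (limma 3.58.1, R 4.3.3) with 3 residual and 4.84 prior degrees of freedom, and p was adjusted by Benjamini-Hochberg with a threshold of 0.05. The median standard error was 0.12 on the log2 scale, and the number of arrays limits the precision.

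The fit was tested on simulated arrays. Members and lists were chosen with earlier results of these data known. Values are given for members past the threshold, the 25 of smallest p, fixed muscle genes and all cullins, and for up to 4 genes of a list; the neighbours of Klhl38 and other genes were chosen after their values were seen. Alternatives were the fit without the block, a random block, each experiment left out, quantile normalization, median centring, a filter on the lowest 25% of clusters, a trended robust prior, array weights and the mean of a gene's clusters.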

Additional observations from a re-analysis of the deposited data

Results flagged for a closer look

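In 4 of 86 groups of 4 pools (43 members, fed and fasted), 1 pool stood far from the other 3 by Dixon's test. Chance flags about 1 in 20 groups. Klhl24 was at 9.58 in the fasted pool of experiment 3, and the other fasted pools were at 10.01 to 10.04. Klhl31 was at 10.97 in the same pool, with the next at 11.19. Klhl2 was at 5.78 in the fasted pool of experiment 1, above the next value of 5.20. Cul4a was at 6.53 in that pool, above values of 6.50, a gap that is small on the scale of the other members.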

How the results depend on the processing

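Klhl38 passed in 11 of 12 alternatives, with differences from 1.57 to 1.96 and adjusted p from 0.00065 to 0.0755, and ended without experiment 1. The count of members past the threshold, all higher, was 1 in the reported fit, 2 without the experiment block, with a random block, with array weights and without the lowest 25% of clusters, where Klhl7 joined, and 0 to 1 when each experiment was left out. The block changed no other member's call. The 93 list genes had 0 past the threshold, 2 with a random block and 1 without the lowest 25%, with the trended prior and with array weights, all higher. The count over all clusters was 137 (89 higher, 48 lower). It was 229 with a random block (143 and 86), 45 after median centring (32 and 13), 240 without the lowest 25% (149 and 91), 216 with the trended prior (130 and 86) and 265 with array weights (153 and 112). Without each experiment in turn it was 16 to 94, with 11 to 68 higher and 5 to 26 lower. Fewer arrays were fitted then; the cause of the other shifts was not tested. Leaving out 1 experiment moved the difference of 30 of 43 members by over 1.5 times or turned its sign. The members' median was 0.00302 to 0.0605 when each experiment was left out and -0.02 with array weights. In 12 members, none of which passed in any setting, the sign changed in a setting. When each experiment was left out in turn, the differences ran from -0.0169 to 0.342 for Klhl9, -0.339 to 0.0701 for Cul2, -0.320 to 0.0353 for Cul5, -0.00492 to 0.203 for Klhl18, -0.00551 to 0.177 for Btbd3 and -0.216 to 0.0467 for Btbd11. They ran from -0.110 to 0.119 for Btbd16, -0.244 to 0.103 for Cul7, -0.224 to 0.163 for Cul3, -0.174 to 0.115 for Klhl13, -0.0591 to 0.102 for Klhl1 and -0.0327 to 0.0614 for Btbd7. With array weights, Btbd3 (-0.0161), Btbd16 (-0.0291) and Btbd7 (-0.0245) changed sign, and after median centring Klhl13 (0.00325) did.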
